A study of Sus scrofa with 16 samples.

Results

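The genes described here are 10 genes of inflammatory signalling in pig liver, namely the receptors CD14, TLR2, IL4R and IL6R, the transcription factor STAT3, the inhibitors SOCS3 and NFKBIB, the regulators LITAF and PID1, and the phosphatase ALPL. They were taken by their pig symbols, with LITAF and PID1 fixed by their Ensembl identifiers, from the 25880 genes listed for every pig, and all 10 were found and had at least 1 read in each of the 16 pigs. The question was which of them were highest in pigs fed beef tallow. Of the 10, 9 had their highest mean on beef tallow (36.7% of all genes that passed a filter on low counts did). NFKBIB was among the 9 only through 1 pig. In 2, LITAF and PID1, every beef tallow pig exceeded every other pig (0.305% of all genes). LITAF was 2.56-fold and PID1 3.51-fold higher on beef tallow than on rapeseed oil, and neither differed detectably between rapeseed oil and coconut oil. IL6R, the receptor subunit for interleukin-6, had its lowest mean on beef tallow. The genes were listed with the levels on beef tallow known, so their values in the comparisons that hold beef tallow are descriptions without a test.

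Liver was sampled from crossbred pigs, bred from sows of Polish Landrace and Polish Large White and boars of Duroc and Pietrain, at the end of fattening from 60 to 118 kg. The age of the pigs was not given in the sources used here. Group R received rapeseed oil (5 pigs, 3 females and 2 males), group B beef tallow (5 pigs, 2 females and 3 males) and group C coconut oil (6 pigs, 3 females and 3 males). The paper gives the females as gilts and the males as barrows, which are castrated. The feeds were otherwise alike in energy and protein, no group went without added fat, and each pig had its own straw-bedded pen. One 3′ mRNA library was sequenced per pig, so a read marks the 3′ end of a transcript and does not show its isoform. Reads on genes numbered 705669 to 1767671 per pig, with a median of 1018321.5, and 6891 genes passed the filter on low counts over all 16 pigs. Levels are given in CPM, read counts brought to a common library size with TMM scaling, and they are compared between pigs, not between genes.

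Beef tallow pig 3, a female, stood apart from the other libraries. On the first principal component, with 19.3% of the variance, it had a score of 58.97, while the other 15 pigs lay between -19.65 and 17.61. It held the highest CD14 and NFKBIB values and the lowest ALPL, IL6R and PID1 values of group B, and its SOCS3 value was far below the rest of that group. Values that moved clearly without this pig are given both ways.

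In liver, CD14 and TLR2 sit mainly on Kupffer cells and other phagocytes, where they bind bacterial lipids and start NF-kB signalling. NFKBIB holds NF-kB in the cytoplasm. Interleukin-6 binds IL6R and acts through gp130 and STAT3 on hepatocytes to switch on acute phase genes, and STAT3 also induces SOCS3, which shuts the same pathway down. IL4R serves interleukin-4 and interleukin-13. LITAF is a membrane protein of late endosomes and lysosomes that binds ubiquitin ligases and was first described as a factor in lipopolysaccharide-induced TNF expression. PID1 carries a phosphotyrosine interaction domain, binds the receptor LRP1 and dampens insulin signalling. ALPL is the tissue-nonspecific alkaline phosphatase, which can remove phosphate from lipopolysaccharide and pyrophosphate.

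**Figure D1:**
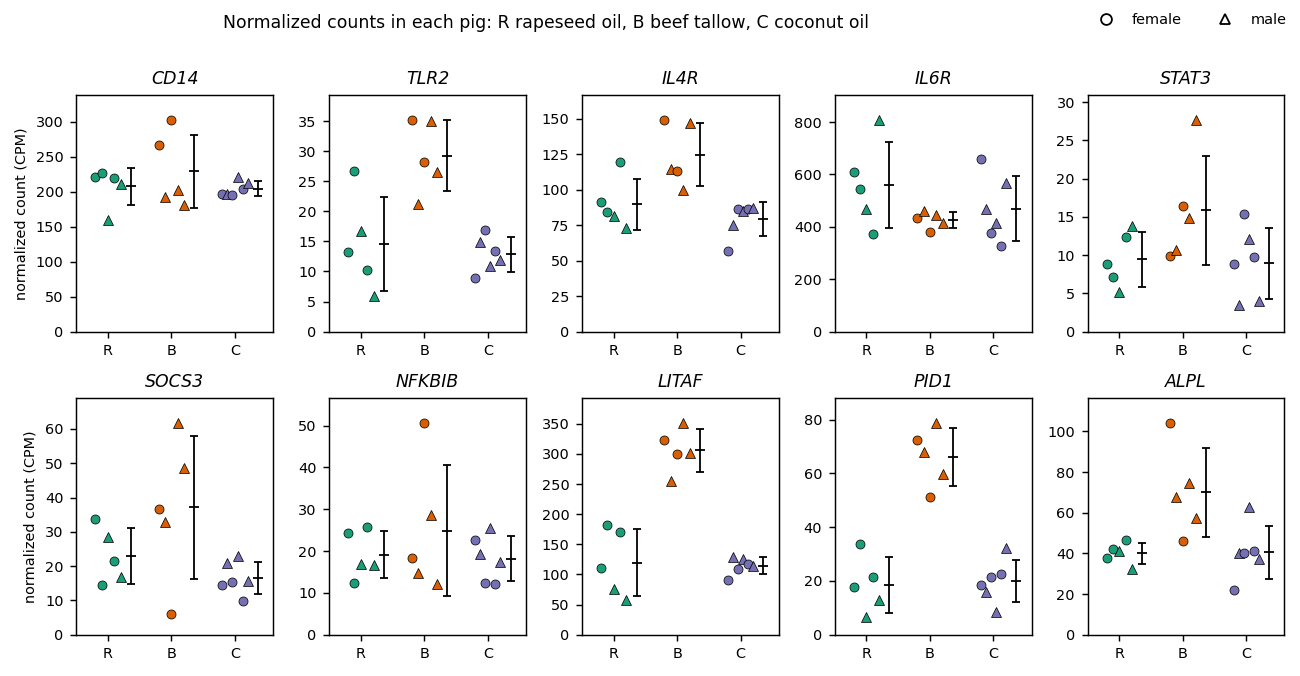
Normalized counts (CPM, linear axes from 0) of the 10 genes in each pig, with rapeseed oil (R), beef tallow (B) and coconut oil (C) on the horizontal axis, circles for females, triangles for males, and the mean with 1 SD beside each group. In the LITAF and PID1 panels all 5 beef tallow pigs lie above all 11 others, and in the SOCS3 panel 1 beef tallow pig lies at 5.91 CPM, below every other pig.

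LITAF lies on chromosome 3, bases 31482605 to 31576211 in the RefSeq annotation of Sscrofa11.1. The 5 rapeseed oil pigs had 110.3, 182, 76.3, 171 and 58.0 CPM of LITAF. The 5 beef tallow pigs had 323, 255, 299, 351 and 302 CPM. The 6 coconut oil pigs ran from 91.4 to 129.7 CPM with a median of 116. The lowest beef tallow pig was thus well above the highest rapeseed oil pig. The means were 119 ± 55.3 (SD, n = 5), 306 ± 35.3 (n = 5) and 115 ± 13.6 CPM (n = 6), and the groups ranked B, R and C, with R and C closer together than their spread. The log2 fold change of group B over group R was 1.35 (SE 0.27), and that of group C over group B was -1.41 (SE 0.15).

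PID1 lies on chromosome 15, bases 130080821 to 130215548. Its values were 17.7, 33.9, 6.46, 21.6 and 12.8 CPM on rapeseed oil and 72.6, 67.9, 51.2, 78.6 and 59.7 CPM on beef tallow. On coconut oil the lowest, median and highest pigs had 8.47, 20.1 and 32.1 CPM. The lowest beef tallow pig, pig 3, was still above all pigs on rapeseed oil and coconut oil. The means were 18.5 ± 10.3, 66.0 ± 10.8 and 19.9 ± 7.85 CPM, a log2 fold change of 1.81 (SE 0.30) from R to B and of -1.68 (SE 0.25) from B to C. Without beef tallow pig 3 these were 1.89 and -1.76. PID1 counts were low, from 5 to 95 reads per pig.

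TLR2, the receptor for bacterial lipoproteins, lies on chromosome 8, bases 75416257 to 75428370. The rapeseed oil pigs had 13.2, 26.7, 16.8, 10.3 and 5.90 CPM and the beef tallow pigs 35.1, 21.2, 28.2, 35.1 and 26.5 CPM. Group C ran from 8.90 to 16.97 CPM with a median of 12.6. All 5 beef tallow pigs exceeded all coconut oil pigs, and 1 rapeseed oil pig, at 26.7 CPM, lay within the range of group B. The means were 14.6 ± 7.85, 29.2 ± 5.95 and 12.8 ± 2.90 CPM for R, B and C. The log2 fold changes were 1.01 (SE 0.32) from R to B and -1.21 (SE 0.23) from B to C, on 6 to 46 reads per pig.

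CD14, the lipopolysaccharide co-receptor on chromosome 2, bases 142348036 to 142349686, showed no such separation. Group R had 221, 227, 160.3, 219 and 211 CPM of CD14, and group B had 267, 193, 303, 203 and 181 CPM. The coconut oil pigs lay between 196 and 221 CPM, with a median of 200.5. All 3 groups overlapped, and their means of 208 ± 27.1, 229 ± 52.6 and 205 ± 10.6 CPM differed by less than the spread within group B. The log2 fold change from R to B was 0.14 (SE 0.18) with all pigs and 0.02 without beef tallow pig 3. From B to C it was -0.17 (SE 0.16) and, without that pig, -0.05.

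IL4R lies on chromosome 3, bases 19526343 to 19576792. Its rapeseed oil values were 91.2, 84.1, 81.4, 119.5 and 72.8 CPM and its beef tallow values 149, 115, 113, 99.9 and 147 CPM. The coconut oil pigs had between 56.6 and 87.3 CPM with a median of 85.5. Every beef tallow pig exceeded every coconut oil pig, and a single rapeseed oil pig overlapped group B. The means were 89.8 ± 17.9, 125 ± 22.1 and 79.4 ± 11.99 CPM for R, B and C. The log2 fold changes were 0.47 (SE 0.19) from R to B and -0.65 (SE 0.17) from B to C.

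IL6R, on chromosome 4, bases 95322426 to 95381393, ran the other way. Group R had 608, 546, 468, 374 and 807 CPM of IL6R, and group B had 432, 459, 379, 445 and 414 CPM. Group C spanned 328 to 660.2 CPM with a median of 442. The beef tallow pigs were the most alike (SD 31.3 CPM, against 163 in R and 124 in C), and their whole range lay inside that of both other groups. Mean IL6R was 561, 426 and 469 CPM, so the groups ranked R, C and B, and no neighbours in this order were separated beyond their spread. The log2 fold changes were -0.40 (SE 0.19) from R to B and 0.14 (SE 0.18) from B to C.

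STAT3, on chromosome 12, bases 20407316 to 20471091, was the gene with the fewest reads, 4 to 25 per pig. It had 8.83, 7.18, 5.17, 12.4 and 13.8 CPM on rapeseed oil and 9.93, 10.6, 16.4, 14.9 and 27.7 CPM on beef tallow, with 3.51 to 15.4 CPM on coconut oil. The groups overlapped, and 2 beef tallow pigs, at 16.4 and 27.7 CPM, were above all pigs of the other diets. The log2 fold change was 0.71 (SE 0.35) from R to B and -0.90 (SE 0.38) from B to C. Such low counts leave each value with a wide counting error.

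SOCS3, on chromosome 12, bases 3643832 to 3647015, had 33.8, 14.4, 28.4, 21.6 and 16.7 CPM in group R and 36.7, 32.9, 5.91, 61.6 and 48.7 CPM in group B. The 6 coconut oil pigs ran from 9.78 to 23.0 CPM with a median of 15.6. Beef tallow pig 3 had the lowest SOCS3 value of all 16 pigs (9 reads), while the other 4 beef tallow pigs, at 32.9 to 61.6 CPM, were above every coconut oil pig. The means were 23.0 ± 8.11, 37.2 ± 20.8 and 16.6 ± 4.76 CPM. From R to B the log2 fold change was 0.65 (SE 0.43), and 0.94 (SE 0.27) without beef tallow pig 3. From B to C it was -1.15 (SE 0.40), and -1.46 (SE 0.25) without that pig.

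NFKBIB, on chromosome 6, bases 47703644 to 47712661, had 24.3, 12.3, 16.8, 25.8 and 16.7 CPM in group R and 18.3, 14.9, 50.5, 28.7 and 12.2 CPM in group B. In group C it ranged from 12.2 to 25.4 CPM. The highest mean, 24.9 ± 15.6 CPM in group B, came from beef tallow pig 3 alone, since the other 4 pigs of that group averaged 18.5 CPM against 19.2 in group R and 18.2 in group C. Without that pig, the log2 fold change from R to B went from 0.40 (SE 0.36) to -0.06, and that from B to C from -0.49 (SE 0.34) to -0.03. NFKBIB and SOCS3, both inhibitors, thus stood at opposite ends of group B in the same pig.

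ALPL lies on chromosome 6, bases 79589695 to 79649646. Rapeseed oil pigs had 37.5, 42.1, 41.4, 46.4 and 32.5 CPM of ALPL, and beef tallow pigs had 104, 67.9, 45.9, 74.4 and 57.5 CPM. The coconut oil pigs had between 21.8 and 62.9 CPM with a median of 40.2. Of the beef tallow pigs, 4 exceeded every rapeseed oil pig, and the exception was beef tallow pig 3. The means were 40.0 ± 5.24, 69.9 ± 21.8 and 40.6 ± 13.1 CPM. The log2 fold changes were 0.81 (SE 0.22) from R to B and -0.80 (SE 0.25) from B to C, and 0.94 and -0.93 without that pig.

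**Figure D2:**
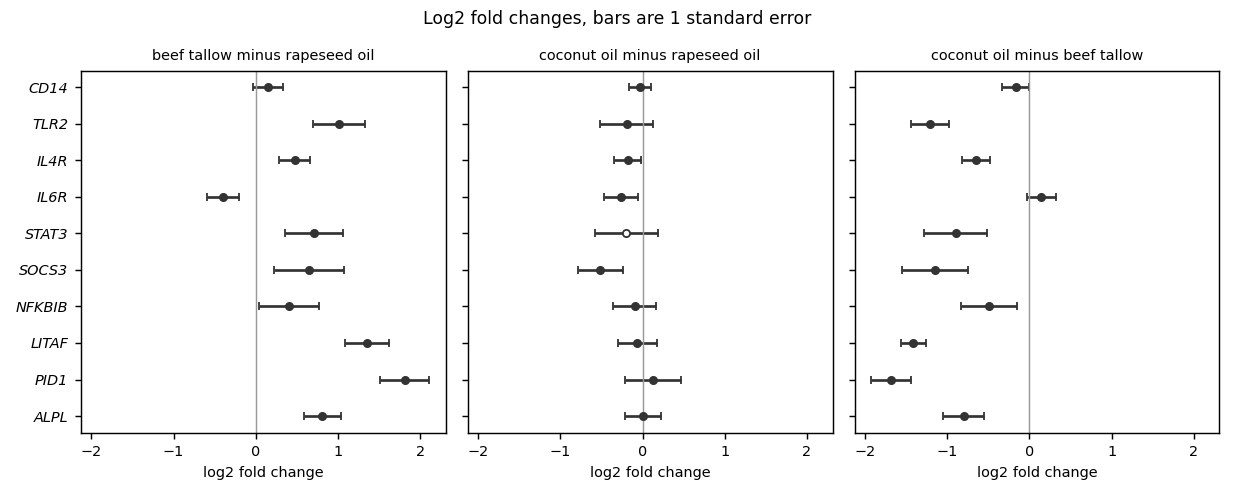
Log2 fold changes of the 10 genes in the 3 comparisons of diets, as points with bars of 1 standard error from edgeR, on shared axes. From rapeseed oil to beef tallow 9 of 10 points lie above 0 with LITAF and PID1 farthest out, and between rapeseed oil and coconut oil the points lie between -0.51 and 0.13 (the open circle is STAT3, from the fit without a filter on low counts).

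Of the 10 genes, 9 had their highest mean in group B, against 36.7% of the 6891 genes that passed the filter. NFKBIB was among the 9 only through beef tallow pig 3. The other 4 pigs of group B averaged 18.5 CPM of NFKBIB, against 19.2 in group R. Every beef tallow pig exceeded every other pig in LITAF and PID1, which is 2 of 10 genes against 0.305% of all genes. Every beef tallow pig exceeded every coconut oil pig in 4 of 10 (LITAF, PID1, TLR2 and IL4R), against 0.871%, and every rapeseed oil pig in 2 of 10, against 2.48%. The median log2 fold change of the 10 genes was 0.68 from R to B and -0.85 from B to C, where the medians of all genes tested were 0.01 and -0.00451. Fitted across all genes with edgeR, LITAF and PID1 passed an adjusted p of 0.05 from R to B, where 1.11% of 6318 genes did and 0.649% were higher in group B, and again from B to C, where 0.0587% of 6812 genes did. As the genes were listed for these contrasts, nothing is read from these counts. The 2 contrasts also share the beef tallow pigs, so they are not separate observations of group B. In bulk liver, a larger share of one cell type and more RNA per cell cannot be told apart.

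As the genes were listed for these contrasts, the calls given here are descriptions and no test of the genes. They depended on the pigs included and on the settings. From B to C, LITAF and PID1 both passed when any single pig was left out. From R to B, LITAF no longer passed without rapeseed oil pig 1, 3 or 5 or beef tallow pig 1, 4 or 5, and without rapeseed oil pig 5 none of the 10 genes passed, although the log2 fold change of LITAF stayed between 1.18 and 1.55 and that of PID1 between 1.62 and 2.13. Leaving out beef tallow pig 3 brought ALPL past the threshold from R to B and SOCS3 from B to C. TLR2 passed from B to C when beef tallow pig 2 was left out or when no filter on low counts was used, and IL4R passed from B to C with DESeq2.

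The comparison of rapeseed oil with coconut oil holds no beef tallow pig, and there the 10 genes could be tested. STAT3 fell below the filter on low counts, and none of the other 9 passed the edgeR test, against 0.138% of the 6528 genes tested. None had an unadjusted p below 0.05 either, where 13.0% of all genes did, and DESeq2 called none of the 5 to which it gave an adjusted p. LITAF differed by -0.06 on the log2 scale (95% interval -0.56 to 0.43, adjusted p = 0.943 by edgeR), so a difference of up to 1.35-fold upwards or to 0.677-fold downwards is within the error. PID1 differed by 0.13 (-0.59 to 0.85, adjusted p = 0.919 by edgeR). The intervals of TLR2 (-0.87 to 0.48), IL4R (-0.53 to 0.17), IL6R (-0.69 to 0.17), NFKBIB (-0.64 to 0.45) and ALPL (-0.46 to 0.46) all held 0. CD14 was known most closely, at -0.03 (-0.31 to 0.25). SOCS3 came nearest to a difference, being 0.51 lower on coconut oil (interval -1.09 to 0.06, unadjusted p = 0.0760 and adjusted p = 0.446 by edgeR). STAT3, fitted without the filter, differed by -0.20 (adjusted p = 0.890 by edgeR).

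Sex played no part in choosing the genes, and the males compared here were barrows, not intact males. With diet as a term, 0 of 10 differed between the 8 males and the 8 females by edgeR, where 0.0786% of 6365 genes did, and none had an unadjusted p below 0.05 (4.9% of all genes did), and DESeq2 also called 0. The smallest unadjusted p was that of CD14, 0.23 lower in males on the log2 scale (unadjusted p = 0.0675, adjusted p = 0.914 by edgeR). Without beef tallow pig 3 the CD14 difference was -0.17 (unadjusted p = 0.170 by edgeR). LITAF then had the smallest unadjusted p (0.130 by edgeR). SOCS3 was 0.59 higher in males (interval -0.06 to 1.23, adjusted p = 0.914 by edgeR), and 0.29 without beef tallow pig 3, where the 10 genes all had an adjusted p of 0.999864 by edgeR.

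Within group R, the 3 females lay above the 2 males in 4 of the 10 genes (LITAF, PID1, IL4R and CD14), as they did in 9.32% of all genes, and the sexes of this group did not overlap in either direction in 20.1%. The 3 females had 110.3 to 182 CPM of LITAF and the 2 males 58.0 and 76.3 CPM. PID1 followed with 17.7 to 33.9 CPM in the females and 6.46 and 12.8 CPM in the males. In group C, LITAF was 91.4 to 117 CPM in females and 115 to 129.7 CPM in males, so the sexes overlapped there. The interaction of diet and sex for LITAF was 1.41 on the log2 scale between R and C (SE 0.35, unadjusted p = 0.000907, adjusted p = 0.986 by edgeR) and 1.16 between R and B (SE 0.39, unadjusted p = 0.0110, adjusted p = 0.999 by edgeR). For PID1 it was 1.43 between R and B (SE 0.54, unadjusted p = 0.0192, adjusted p = 0.999 by edgeR), and for CD14 0.66 between B and C (SE 0.28, unadjusted p = 0.0331, adjusted p = 0.999772 by edgeR). These 4 values, 2 of 10 genes for R with B, 1 of 9 for R with C and 1 of 10 for B with C, were the ones with an unadjusted p below 0.05. No gene in the liver passed the adjusted threshold for an interaction in any pair of diets (0.0%), while 3.96%, 3.98% and 3.52% of genes had an unadjusted p below 0.05 for R with B, R with C and B with C. The values for group R rest on 2 males, and those for group B on 2 females, among them beef tallow pig 3 with 303 CPM of CD14.

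Over the 16 pigs, the Pearson correlation of log2 CPM was 0.877 between LITAF and PID1, 0.854 between LITAF and TLR2, 0.791 between LITAF and IL4R and 0.745 between PID1 and TLR2. Much of this lay between the diets. Differences between the diet means took up 75.8% of the variance of LITAF, 71.8% of PID1, 58.8% of TLR2, 58.7% of IL4R and 50.3% of ALPL, against a median of 16.05% over all genes kept. For STAT3, SOCS3, IL6R, CD14 and NFKBIB the share was 28.5%, 20.6%, 18.6%, 8.96% and 5.97%. The genes were listed with the levels on beef tallow known, so nothing is read from these shares against that median. After the diet means were removed, the correlation of LITAF was 0.537 with PID1, 0.599 with TLR2 and 0.489 with IL4R, and that of PID1 with TLR2 was 0.296. Over all 45 pairs of the 10 genes the median correlation was 0.27 and, with diet means removed, 0.03. These correlations are descriptions over 16 pigs that share diets and library depth.

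**Figure D3:**
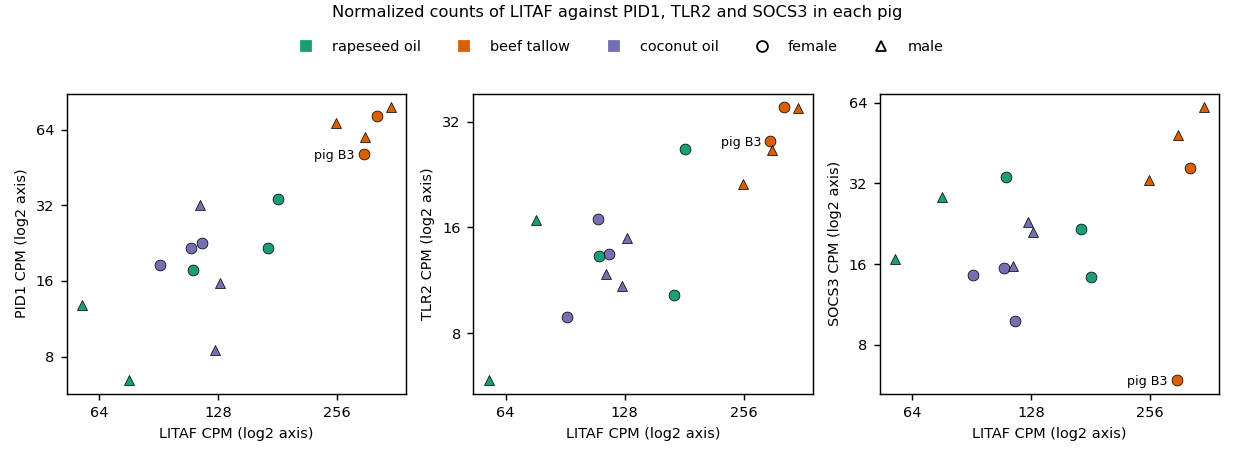
LITAF in each pig against PID1, TLR2 and SOCS3 (CPM, log2 axes), with colours for the diets, circles for females and triangles for males. The beef tallow pigs lie at the upper right for PID1 and TLR2, and beef tallow pig 3 (pig B3) keeps its LITAF value of 299 CPM while its SOCS3 value is 5.91 CPM.

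The 5 genes most like LITAF over the 16 pigs, among those with a symbol, were B4GALT5, PID1, ZCCHC24, TLR2 and CD163, with correlations of 0.903 to 0.849. B4GALT5, a galactosyltransferase of the Golgi, averaged 24.3 ± 9.12 CPM in group R, 41.8 ± 9.30 in B and 22.4 ± 3.68 in C, and its correlation with LITAF was 0.774 with diet means removed. The genes with a symbol most like PID1 were ARHGAP35, LITAF, WDR4, HAL and SRSF6, with correlations of 0.916 to 0.777. ARHGAP35 averaged 45.2 ± 5.54, 59.4 ± 5.91 and 46.5 ± 3.78 CPM in R, B and C. HAL, the first enzyme of histidine breakdown, averaged 63.9 ± 31.2, 169 ± 42.9 and 70.9 ± 25.4 CPM. Of all 6890 other genes, with or without a symbol, 12 had a correlation above 0.8 with LITAF and 2 with PID1. These genes were picked by their likeness, so their levels are not tested.

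The wider pathways around the 10 genes were followed with 8 lists holding 186 symbols in all, of which 169 were found and 109 to 112 could be tested per comparison. The 10 genes were left out of them. From R to B, 1 list gene was called (0.917% of 109) and it was lower, from R to C none, and from B to C 2 (1.79% of 112), both lower in group C. Among all genes tested, 1.11%, 0.138% and 0.0587% were called in these comparisons. An unadjusted p below 0.05 was seen in 12, 11 and 12 list genes (11.0%, 9.91% and 10.7%), against 14.99%, 13.0% and 11.5% of all genes, so the counts in single lists are to be read against these shares, and lists this short can show few calls at all. The medians of the lists lay between -0.33 and 0.14 in the 3 comparisons.

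Among genes of lipopolysaccharide and Toll-like receptor signalling, 10 were tested. LBP, the plasma protein that hands lipopolysaccharide to CD14, averaged 133 ± 52.4 CPM in group R, 237 ± 47.0 in B and 97.7 ± 26.9 in C. It fell from B to C (log2 fold change -1.28, SE 0.19, adjusted p = 0.00887 by edgeR), with all coconut oil pigs below all beef tallow pigs, and did not pass from R to B (0.83, SE 0.24, adjusted p = 0.115 by edgeR), where it passed with DESeq2 (adjusted p = 0.0420) and without the filter on low counts (adjusted p = 0.0287 by edgeR). The other 9 genes did not pass in any comparison. In group C, 8 of the 10 lay below group R (median -0.26) and 8 of 10 below group B (median -0.24).

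Of the 19 tested NF-kB subunits, inhibitors and kinases, none was called by edgeR in any comparison, and 2, 1 and 0 had an unadjusted p below 0.05 from R to B, R to C and B to C. REL, a subunit of NF-kB, averaged 22.7 ± 5.14, 34.6 ± 9.62 and 25.5 ± 5.32 CPM in R, B and C (R to B 0.60, adjusted p = 0.271 by edgeR). TAB2, an adaptor of the kinase TAK1, averaged 41.3, 29.9 and 37.4 CPM (R to B -0.47, adjusted p = 0.285 by edgeR). IKBKB, the kinase that marks NF-kB inhibitors for destruction, averaged 12.05, 15.3 and 19.6 CPM (R to C 0.70, adjusted p = 0.315 by edgeR). DESeq2 also called none of this list.

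In the interleukin-6, gp130 and JAK-STAT list, 25 to 27 genes were tested and edgeR called none, with 3, 0 and 2 at an unadjusted p below 0.05. PTPN1, a tyrosine phosphatase that acts on JAK kinases and the insulin receptor, averaged 76.8 ± 4.00 CPM in group R, 113 ± 16.1 in B and 76.9 ± 11.99 in C. Every beef tallow pig was above every pig of R and of C, though the differences of 0.56 and -0.55 did not pass (adjusted p = 0.114 and 0.257 by edgeR). DESeq2 called PTPN1 from R to B (adjusted p = 0.0491). JAK1, a kinase on cytokine receptors, averaged 274 ± 34.8, 370.2 ± 70.4 and 256 ± 59.0 CPM (adjusted p = 0.245 from R to B and 0.299 from B to C by edgeR). PTPN11, the phosphatase SHP2, averaged 51.6, 74.1 and 58.6 CPM (R to B adjusted p = 0.267 by edgeR).

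Of the interleukin-4 and interleukin-13 list, 5 genes were tested and none was called by edgeR or DESeq2, and only from B to C did 1 have an unadjusted p below 0.05. All 5 were lower in C than in B (median -0.33), among them IRS1, an adaptor of interleukin-4 and insulin receptors (26.8 ± 9.71 CPM in B and 17.8 ± 4.00 in C, adjusted p = 0.423 by edgeR), SHC1, an adaptor of growth factor receptors (12.5 and 7.97 CPM), and IL13RA1, which pairs with IL4R (161 ± 23.9 and 149.7 ± 17.8 CPM).

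Of the ubiquitin ligases and endosomal sorting partners of LITAF, 14 or 15 were tested and none was called by edgeR or DESeq2, with 0, 1 and 2 at an unadjusted p below 0.05, and the list medians were -0.02, 0.05 and 0.01. SNF8, a subunit of the sorting complex ESCRT-II, averaged 13.3 ± 6.39, 12.6 ± 4.17 and 22.3 ± 6.07 CPM (B to C 0.80, adjusted p = 0.299 by edgeR). VPS37A, of ESCRT-I, averaged 13.2, 15.9 and 10.47 CPM, and HGS, of ESCRT-0, averaged 29.2, 28.6 and 23.0 CPM.

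The 13 tested genes of LRP1 and insulin signalling around PID1 were called in no comparison by edgeR or DESeq2, and 0, 1 and 0 had an unadjusted p below 0.05. GRB14, an inhibitor of the insulin receptor, averaged 61.0 ± 13.7, 46.4 ± 9.22 and 44.3 ± 6.97 CPM (R to C -0.48, adjusted p = 0.261 by edgeR). FOXO1, a transcription factor that insulin restrains, averaged 14.1, 21.7 and 19.2 CPM, and PIK3CB, a catalytic subunit of PI3-kinase, averaged 11.6, 9.12 and 14.1 CPM.

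Around ALPL, 8 phosphatase and pyrophosphate genes were tested, edgeR and DESeq2 called none, and 1, 2 and 0 had an unadjusted p below 0.05. ANKH, which exports pyrophosphate and ATP from cells, averaged 32.6 ± 4.34 CPM in group R, 20.6 ± 5.99 in B and 16.4 ± 4.60 in C, and all coconut oil pigs lay below all rapeseed oil pigs (-1.03, SE 0.21, adjusted p = 0.0644 by edgeR). Without the filter on low counts ANKH passed (adjusted p = 0.0256 by edgeR). PIGK, of the machinery that attaches GPI anchors, averaged 14.3, 9.06 and 15.2 CPM.

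Acute phase genes are the hepatocyte targets of interleukin-6 and STAT3. Of the 25 symbols in this list 18 were found, and 15 or 16 were tested. HP (haptoglobin), FGA (a fibrinogen chain) and ORM1 were not among those tested, so the counts below leave them out. The absence of HP and FGA is no sign of low counts, since the paper gives both high mean counts. The paper reports HP and FGA as lower and ORM1 as higher on coconut oil than on beef tallow. ITIH4, an acute phase protein of pig plasma, averaged 1355 ± 404 CPM in group R, 2437 ± 649 in B and 903 ± 210 in C. It fell from B to C (-1.43, SE 0.20, adjusted p = 0.00538 by edgeR), and all coconut oil pigs lay below all beef tallow pigs. From R to B it did not pass, though every beef tallow pig exceeded every rapeseed oil pig (0.85, SE 0.23, adjusted p = 0.0837 by edgeR), and there it passed with DESeq2 (adjusted p = 0.0172) and without the filter (adjusted p = 0.0272 by edgeR). TTR, the thyroid hormone carrier that drops in the acute phase, fell from 6523 ± 949 CPM in R to 3791 ± 621 in B (-0.78, SE 0.17, adjusted p = 0.0426 by edgeR), and this call was lost with sex as a covariate or without the filter on low counts. Among those tested, 7 of 15 genes were higher and 8 lower from R to B, with a median of -0.03. The list holds genes known to drop in the acute phase as well as genes known to rise. Of the 5 that are known to drop (ALB, TTR, TF, RBP4 and APOA1), 4 were lower in B than in R, and of the other 10, 6 were higher (median 0.26). From B to C, 8 of the 11 others tested were lower (median -0.55), and of the 5 known to drop 3 were higher in C (median 0.06). Among all genes tested, 51.5% were higher from R to B and 49.6% from B to C. APCS, the serum amyloid P component, and CRP were chosen after their values were seen. APCS averaged 1713 ± 411 CPM in R, 3164 ± 907 in B and 1850 ± 565 in C. From R to B APCS did not pass (0.88, SE 0.22, adjusted p = 0.0662 by edgeR), and it passed with DESeq2 (adjusted p = 0.00850) and without the filter (adjusted p = 0.0209 by edgeR). CRP averaged 2219 ± 608, 3942 ± 1920 and 2490 ± 1014 CPM, and did not pass from R to B (0.83, SE 0.30, adjusted p = 0.186 by edgeR). FN1 was lower in C than in R (-0.81) and than in B (-1.16), and edgeR with the filter called neither. DESeq2 called both (adjusted p = 0.00611 and 0.0269).

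**Figure D4:**
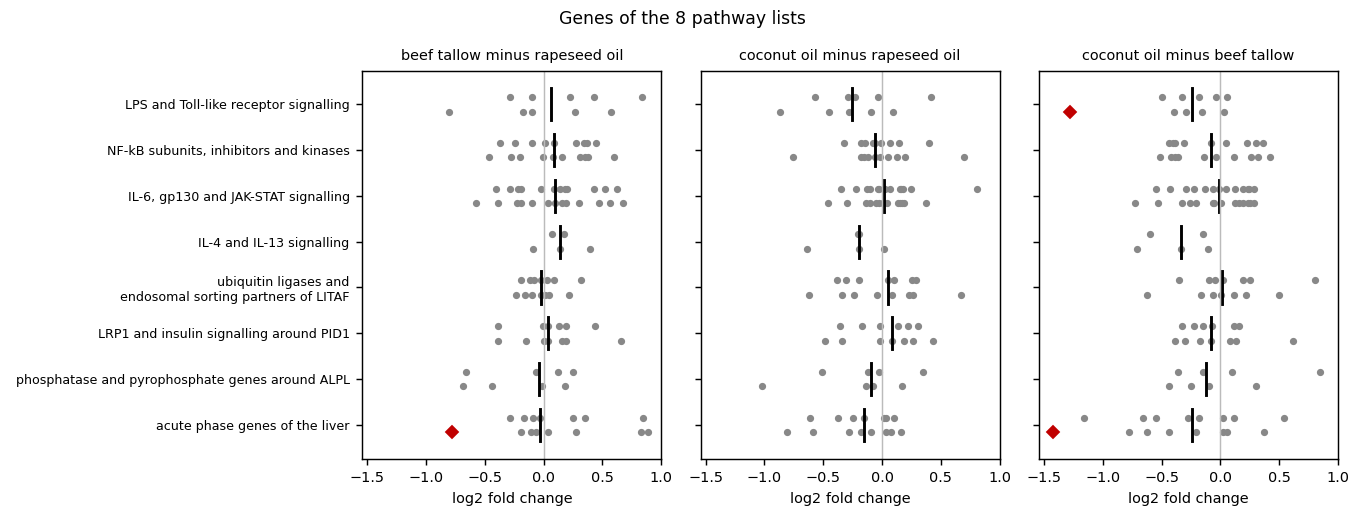
Log2 fold changes of every tested gene in the 8 pathway lists (the 10 genes left out) in the 3 comparisons, with 1 point per gene, red diamonds for genes past an adjusted p of 0.05 and a bar at the median of each list. The diamonds are TTR from rapeseed oil to beef tallow (-0.78) and LBP (-1.28) and ITIH4 (-1.43) from beef tallow to coconut oil.

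Markers of other cell types were measured in the same libraries. Of 24 markers of Kupffer cells and macrophages, 21 were found, and their summed level was 2141 to 3255 CPM in group R, 2328 to 3470 in B and 2030 to 2836 in C. The groups overlapped in this sum, with medians of 2756, 2389 and 2175 CPM, and abundant markers weigh most in it. Counted gene by gene, 12 of 17 tested markers were higher in B than in R (median 0.17) and 13 of 18 lower in C than in B (median -0.36). Of the latter, 7 of 18 had an unadjusted p below 0.05, against 11.5% of all genes, and none was called. CSF1R had fewer than 10 reads in every pig, and the most abundant marker, CTSS, averaged 598, 602 and 495 CPM. CD163, a scavenger receptor of macrophages, was higher in group B than in R (110.4 ± 18.4 and 190.3 ± 22.7 CPM, log2 fold change 0.79, SE 0.17, adjusted p = 0.0414 by edgeR). With diet means removed, the summed level had a correlation of 0.699 with TLR2, 0.328 with LITAF and 0.126 with PID1 over the 16 pigs, and of 0.833, 0.397 and 0.266 without beef tallow pig 3. With CD14 it was 0.410 and, without that pig, 0.128, and with SOCS3 -0.448 and -0.0091. The part of macrophages in these values was not tested.

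Endothelial markers, with 10 of 12 found, summed to 399 to 643 CPM in group R, 563 to 780 in B and 515 to 768 in C. LYVE1, of sinusoidal endothelium, rose from R to B (33.2 ± 6.13 to 61.1 ± 11.5 CPM, 0.88, SE 0.20, adjusted p = 0.0495 by edgeR). It was as high in C (60.0 ± 18.3 CPM, R to C 0.86, adjusted p = 0.104 by edgeR, with all coconut oil pigs above all rapeseed oil pigs). Of the 9 endothelial markers tested, 5 were higher and 4 lower from R to B. The most abundant, CLEC4G, averaged 157, 209 and 160 CPM. With diet means removed, the summed level had a correlation of 0.523 with TLR2 and 0.03 with LITAF, and the part of endothelium was not tested either. Neutrophil markers, with 8 of 11 found, summed to at most 36.8 CPM in any pig and MPO was at 0 in all. The 16 genes found for T, NK and B cells summed to 68.8 to 141 CPM, with CD247 at 27.6, 19.5 and 23.9 CPM. The 10 stellate and fibroblast markers summed to 342 to 908 CPM, with COL3A1 at 243, 209 and 206 CPM, and bile duct markers summed to 3.93 to 42.2 CPM.

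The tissue carried its label. The 14 hepatocyte markers summed to 70115 to 199714 CPM, with ALB, albumin, at a mean of 92047, 75514 and 97190 CPM. SERPINA1 had fewer than 10 reads in every pig. CYP7A1, the rate-limiting enzyme of bile acid synthesis, fell from R to B (-2.63, SE 0.39, adjusted p = 0.00677 by edgeR), as did TTR. These were the 2 hepatocyte markers called there. Of the 13 tested from R to B, 7 were higher and 6 lower (median 0.04). With diet means removed, the hepatocyte sum had a correlation of 0.658 with ALPL and 0.578 with SOCS3, and of 0.552 and 0.128 without beef tallow pig 3, and its part in their values was not tested. The share of reads aligned to several places, 15.4% to 38.1% per pig, had medians of 26.5%, 22.2% and 19.8% in R, B and C, and its part was not tested.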

How the data were processed

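Liver RNA of 16 pigs was read by 3′ mRNA sequencing. The deposited values are whole read counts per gene without normalization, made by the authors with FastQC, FLEXBAR, TopHat and HTSeq on Ensembl gene models. The strand setting of the counting is not given in the sources used here, and overlapping genes may share reads. The 5 tallies of unassigned reads stayed out of totals and tests. Symbols were matched by Ensembl identifier, and positions come from RefSeq on Sscrofa11.1.

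Each pair of diets was fitted on its own in edgeR 4.0.16 (R 4.3.3) by its quasi-likelihood F-test, with TMM scaling, filterByExpr (minimum count 10, total 15), no covariate and Benjamini-Hochberg adjustment over all genes tested at 0.05. Sex was tested over all pigs with diet as a term. The standard error is the log2 fold change divided by the square root of F. P-values measure the spread between pigs. Correlations used log2 CPM with a prior count of 2. Genes named are the 10 genes, called list genes or otherwise the 3 with the smallest p of each list, called or most abundant cell type markers, and the 5 genes most like LITAF and PID1, and 1 list gene among them is not reported here. APCS, CRP and FN1 were named in addition. The genes and lists were chosen with earlier results of these data known. The fits were tested on simulated data with known changes. Of 2-fold changes they found 44%, 71% and 48% for R with B, R with C and B with C, and of 4-fold changes 84% in each. Of their calls 5.88%, 3.73% and 5.71% were false. Many 2-fold changes would thus be missed. Alternatives were DESeq2 1.42.0, RLE scaling, other filters, 1 fit of all pigs, sex or replicate number as a term, thinning to 705669 reads and leaving out each pig.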

Additional observations from a re-analysis of the deposited data

Results flagged for a closer look

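One value was far from the rest of its group. CD14 in rapeseed oil pig 3, a male, was 160.3 CPM, while the other 4 pigs of that group had 211 to 227 CPM, and the gap was 0.770 of the range of the group, above the limit of 0.71 for 5 pigs. Of the 30 groups checked (10 genes in 3 diets) this was the only such value, and chance gives about 1 in 20.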

How the results depend on the processing

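Of the 10 genes, LITAF and PID1 kept their direction in both comparisons with group B under every alternative that fitted them. As every beef tallow pig lay above every other pig in both, leaving out a pig could not reverse the direction, and nothing is read from this. None of the 10 genes was called from R to C in any of 20 settings (lowest adjusted p = 0.349, SOCS3, at least 10 reads in every pig, by edgeR). The counts of genes called moved more. From R to B 70 genes were called, against 186 with DESeq2, 190 without a filter on low counts, 35 with the replicate block and 9 to 149 with a pig left out (149 without beef tallow pig 3). From R to C the count was 9, against 90, 82, 14 with at least 10 reads in every pig, 4 after thinning and 3 to 27 with a pig left out. From B to C it was 4, against 46, 22, 8 with all 16 pigs in 1 fit and 4 to 9. Between the sexes it was 5, against 11 with DESeq2 and 41 without the filter, and for diet by sex it was 0, against 13, 24 and 10 without the filter from R to B, R to C and B to C. In these fits the lowest adjusted p of any of the 10 genes was 0.121 by edgeR, against 0.986 with the filter. The 21 genes with every beef tallow pig on top became 22 to 49 with a pig left out. Of the 10 genes most like LITAF and PID1, 6 remained after thinning and 5 to 9 with a pig left out. Pathway genes called from R to B went from 1 to 5 with DESeq2, 3 without the filter and 0 with sex as a covariate, and from R to C from 0 to 1 with DESeq2 and 2 without the filter. Where a value moved, the cause was not tested. The differences from R to C, none of them called, changed sign in 6 genes. LITAF was 0.047 with sex as a covariate, 0.033 with the replicate block, 0.052 after thinning and -0.24 to 0.14 with a pig left out. PID1 was -0.056 with the replicate block, -0.011 after thinning and -0.084 to 0.45. TLR2 ranged from -0.40 to 0.14, CD14 from -0.11 to 0.0097 and NFKBIB from -0.22 to 0.024 with a pig left out, and NFKBIB was 0.056 after thinning. ALPL was -0.0036 with at least 10 reads in every pig, -0.028 with sex, -0.012 with the replicate block and -0.15 to 0.13. Without beef tallow pig 3, an alternative for the sexes and the correlations chosen after the data were seen, the difference of males from females was 0.044 in NFKBIB (-0.28 with all pigs) and -0.065 in ALPL (0.041). Pigs with the same replicate number share only a number: of 15 such pairs 2 had a correlation of deviations above 0.1 (median 0.046), and with the block PID1 was no longer called from B to C. Depth limits PID1, TLR2, STAT3, SOCS3 and NFKBIB, each with under 10 reads in at least 1 pig.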
